A study of Oryza sativa with 18 samples.

Results

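Open chromatin in rice leaves was listed as short stretches of DNA, and a part of them came as isolated pairs with a gap of about the length that 1 nucleosome and its linker can cover. The pairs described here are runs of exactly 2 open regions on chromosomes 1 to 12, with a gap of 100 to 250 bp between them and no further region less than 1000 bp away on either side. There were 1103 such pairs, which hold 2206 of the 29831 chromosomal regions (7.39%) and of the 29978 regions in all. The pairs were chosen by the gap between the deposited end of a region and the start of the next, so gaps are given as a description and are not tested, and widths are handled the same way because they come from the same positions. Pairs with a gap of 500 to under 1000 bp, of which there were 1209, served for comparison.

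The regions come from ATAC-seq, in which the Tn5 transposase cuts and tags DNA that is not wrapped in nucleosomes. The plants were 14-day-old rice (Oryza sativa) of the genotype Azucena, grown in hydroponic culture, and the second leaf was taken. Heat was applied at 40 °C for 0.5, 2 or 4 h, heat recovery was 2 h at 30 °C after 2 h of heat, dehydration was 2 h with the roots in air, dehydration recovery was 2 h back in liquid after 1.5 h in air by the design text (the libraries are labelled 4 h), and control plants stayed at 30 °C in liquid and were sampled at 0.5, 2 and 4 h. These are 9 groups of 2 libraries. The processed data analysed here are 1 list for all 18 libraries together. It separates neither libraries nor treatments, so the groups were not set against each other, the depth behind each of them is unknown, and no spread between plants can be given.

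A nucleosome is a short length of DNA wound around a core of histone proteins, and linker DNA joins it to the next one. Inside a nucleosome the DNA is largely shielded from the transposase, whereas linkers and the nucleosome-free stretches of promoters and enhancers are cut. The nucleosome-free stretch of an active promoter is typically bordered by well-placed nucleosomes. The list records where regions start and end and attributes of their peaks, and whether the gap of any pair held a nucleosome was not measured.

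Gaps in the 100 to 250 bp range did not form a maximum of their own. Among all 3576 runs of exactly 2, pairs were most frequent at the shortest gaps: there were 12.0 pairs per bp of gap from 72 to 99 bp, 9.76 from 100 to 149 bp, 6.20 from 150 to 199 bp and 5.98 from 200 to 250 bp. The density was 3.72 pairs per bp from 251 to 499 bp and 2.42 from 500 to 999 bp. In steps of 10 bp within the range, the count was highest at 100 to 109 bp, with 114 pairs, and lowest at 170 to 179 bp, with 49. From 180 bp on, the 7 steps up to 249 bp held 50 to 66 pairs each, so the counts levelled off there. The median gap was 157 bp (quartiles 127 and 204 bp) in pairs 100 to 250 bp apart and 701 bp (quartiles 585 and 856 bp) in pairs 500 to under 1000 bp apart. No gap in the list was shorter than 72 bp, which was also the smallest width of a region.

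**Figure D1:**
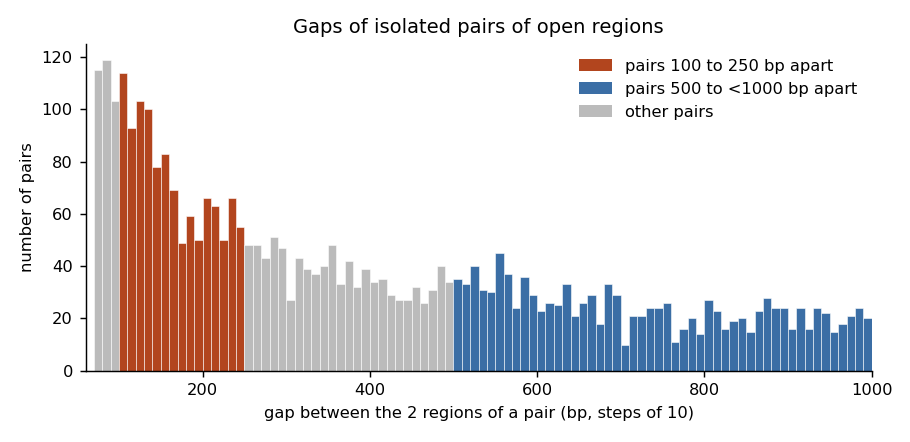
Number of isolated pairs of open regions (y axis) by the gap between their regions (x axis, bp, steps of 10). Bars of pairs 100 to 250 bp apart, pairs 500 to under 1000 bp apart and other pairs have different colours. The leftmost step covers 70 to 79 bp and holds the smallest gap, 72 bp. The 5 pairs with a gap of exactly 250 bp stand in the step after the coloured ones. Counts are highest at the short gaps, and within the coloured range on the left they lie between 114 pairs at 100 to 109 bp and 49 pairs at 170 to 179 bp.

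The limits of the range cut through this slope without a break in it. The 103 pairs with a gap of 90 to 99 bp, just below the range, had regions with a median width of 166 bp and a mean peak value of 15.10, and the 114 pairs at 100 to 109 bp had 170.5 bp and 15.08. At the other limit, the 55 pairs at 241 to 250 bp had 194 bp and 15.55, and the 49 pairs at 251 to 260 bp had 200 bp and 15.49. The peak value is the attribute max of the list, a whole number from 10 to 18 that the file does not define. Its upper end equals the number of libraries, but no source used here says that it counts libraries.

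Gaps of this size were not particular to isolated pairs. The whole chromosomal list held 2717 gaps of 100 to 250 bp, of which 1103 (40.6%) lay in runs of exactly 2 and the other 1614 (59.4%) in longer runs. Such gaps made up 30.8% of the gaps in runs of exactly 2 and 34.6% of the 4663 gaps in longer runs.

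Regions in the close pairs were narrower than those in the pairs farther apart. Their widths ran from 72 to 1730 bp with a median of 189 bp (quartiles 96 and 340 bp, n = 2206), against 72 to 2056 bp with a median of 215 bp (quartiles 118 and 351 bp, n = 2418) in pairs 500 to under 1000 bp apart. The 16295 regions with no neighbour within 1000 bp had a median of 209 bp. By chromosome, the median averaged 189 bp ± 10.4 in the close pairs and 217 bp ± 13.2 in the pairs farther apart (SD, n = 12 chromosomes), and it was lower in the close pairs on 12 of 12 chromosomes, by 6.5 bp on chromosome 2 up to 54 bp on chromosome 11. All chromosomes were read from the same libraries, so the spread over them is not a spread between plants.

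Close pairs had a larger share of narrow regions than pairs farther apart, and a smaller share in the middle of the distribution. The larger share was not particular to them, since pairs 72 to 99 bp apart had 34.3% of regions under 100 bp. Regions in longer runs were not summarised as a set. Regions under 100 bp were 586 of 2206 (26.6%) in the close pairs, against 473 of 2418 (19.6%) in the pairs farther apart, 19.03% of the regions without a close neighbour and 21.7% of all chromosomal regions. By chromosome this share was 27.0% ± 3.23 in the close pairs and 19.1% ± 2.40 in the pairs farther apart (SD, n = 12 chromosomes), higher in the close pairs on 12 of 12. Regions of 200 to under 300 bp made up 17.7% of the close pairs and 21.1% of the pairs farther apart. Those of 300 to under 500 bp made up 17.8% and 20.5% in the same order. At the wide end, regions of 500 bp or more made up 12.1% of the close pairs and 12.0% of the pairs farther apart. Regions of exactly 72 bp made up 7.16% and 6.20%, so the smallest width alone did not carry the larger share of narrow regions.

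**Figure D2:**
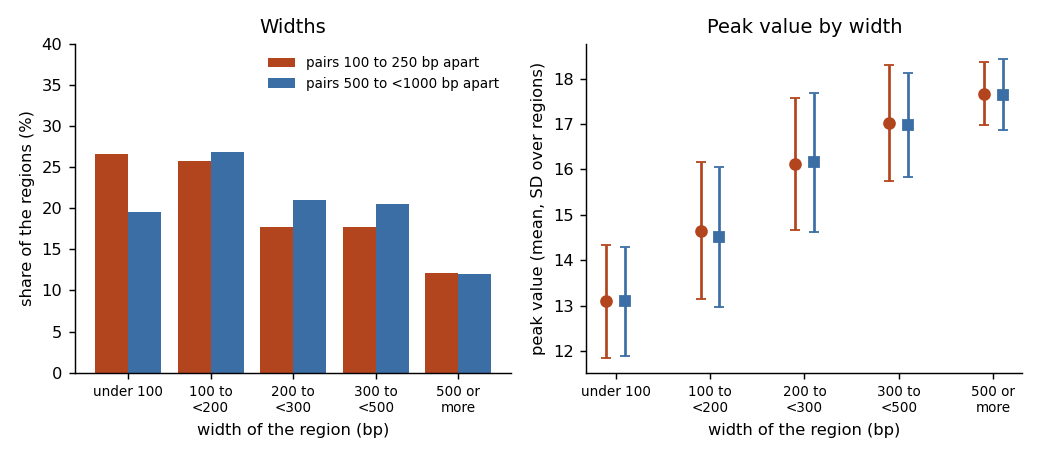
Left, share of the regions (%) in 5 width classes (bp) for pairs 100 to 250 bp apart and pairs 500 to under 1000 bp apart. Right, mean peak value with its SD over regions in the same classes. The class under 100 bp holds 26.6% of the regions in close pairs and 19.6% in the others, while the means of both sets lie within 0.15 of each other in every class.

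Most of the difference in width between the sets was found in the narrower partner. The wider partner had a median width of 306 bp in the close pairs and 313 bp in the pairs farther apart, and the narrower partner of 104 bp and 136 bp in the same order. The narrower partner's median was lower in the close pairs on 12 of 12 chromosomes (104 bp ± 8.17 in the close pairs, 140 bp ± 14.4 in the others, SD, n = 12) and the wider partner's on 10 of 12 (299 bp ± 28.0 in the close pairs, 322 bp ± 23.3 in the others, SD, n = 12). In 434 of 1103 close pairs (39.3%) 1 partner alone was under 100 bp, against 365 of 1209 pairs farther apart (30.2%). Both partners were under 100 bp in 6.89% of the close pairs and 4.47% of the others. The wider partner was at least 3 times as wide as the narrower one in 33.6% of the close pairs and 27.5% of the others.

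Widths within the close pairs varied with the gap. Regions in pairs with a gap of 100 to 149 bp were 174 bp wide at the median. At gaps of 150 to 199 bp the median width was 196.5 bp, and at 200 to 250 bp it was 199.5 bp. The share of regions under 100 bp was 29.8%, 25.8% and 22.1% over the same 3 gap classes. At the shorter gaps of 72 to 99 bp the median width was 162.5 bp and the share under 100 bp 34.3%. At gaps of 251 to 499 bp they were 202 bp and 22.7%, close to the values at 200 to 250 bp.

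The extent of a pair contains the gap that chose it, so the rule sets much of how the sets differ in it. From the start of the lower-coordinate region to the end of the upper one the close pairs spanned 250 to 2152 bp, with a median of 605 bp, of which the gap took a median of 26.9%. Pairs farther apart spanned a median of 1218 bp, of which the gap took 60.04%. The summed width of both regions had a median of 438 bp in the close pairs and 479 bp in the others. From peak position to peak position, the deposited attribute maxpos read in bp from the lowest coordinate, the distance in close pairs was 147 to 1630 bp with a median of 360 bp.

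Peak values in the close pairs were lower than in the pairs farther apart, and the difference was not detected once widths were matched. The mean was 15.29 ± 0.14 in the close pairs and 15.51 ± 0.22 in the pairs farther apart (SD of 12 chromosome means). The difference was -0.22 ± 0.21 (SD, n = 12 chromosomes; two-sided exact permutation test that flips the sign of chromosome differences, with Benjamini-Hochberg adjustment over 4 tests, adjusted p = 0.00586), with a 95% interval from inverting that test of -0.36 to -0.086. It was negative on 11 of 12 chromosomes. On chromosomes 1 to 7 it lay between -0.15 and 0.030, on chromosomes 8 to 12 between -0.27 and -0.70, with the lowest value on chromosome 9. The mean over regions was 15.29 in the close pairs, 15.46 in the pairs farther apart, 15.33 in regions without a close neighbour and 15.34 in all chromosomal regions, so the pairs farther apart stood above the list and the close pairs lay near it. Against pairs with a gap of 300 to under 500 bp in place of the wider one the difference was -0.11, with an adjusted p of 0.126 in the same exact test.

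The widths were matched within 5 width classes weighted by the smaller count, and close pairs minus pairs farther apart then came to 0.040 ± 0.16 (SD, n = 12 chromosomes; exact sign-flip permutation test, adjusted p = 0.723), with a 95% interval of -0.063 to 0.14, positive on 7 of 12 chromosomes and negative on 5. Regions under 100 bp averaged 13.10 in the close pairs and 13.10 in the others. Regions of 100 to under 200 bp averaged 14.65 and 14.51, and those of 500 bp or more 17.67 and 17.65, in the same order. In both sets the mean peak value was higher in each wider class.

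**Figure D3:**
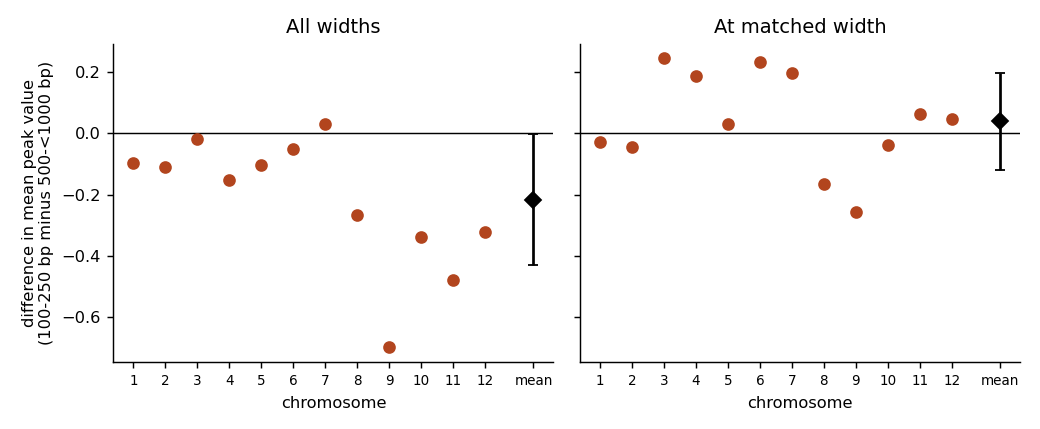
Difference in mean peak value between pairs 100 to 250 bp apart and pairs 500 to under 1000 bp apart (y axis, close pairs minus the others) on each of 12 chromosomes (points), with the mean and SD over chromosomes (diamond). Over all widths (left) 11 of 12 points lie below 0, and at matched width (right) 5 of 12 do.

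By class, peak values of 13 or less were found in 24.9% of the regions in close pairs and 21.5% of those in pairs farther apart, against 23.5% in the whole chromosomal list. The value 18 was the most frequent in both, with 516 of 2206 regions (23.4%) in close pairs and 599 of 2418 (24.8%) in the others, against 22.3% in the whole chromosomal list. No region of a close pair had the value 10, which was rare in the whole chromosomal list as well (13 regions, 0.044%). The value 11 was found in 40 regions of close pairs (1.81%). It made up 1.49% in pairs farther apart and 1.54% in the whole chromosomal list.

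**Figure D4:**
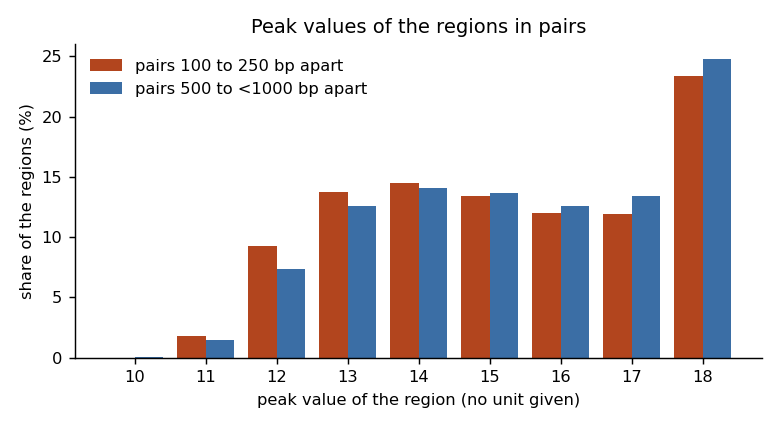
Share of the regions (%) at each peak value from 10 to 18 in pairs 100 to 250 bp apart and pairs 500 to under 1000 bp apart. The value 18 holds 23.4% of the regions in close pairs and 24.8% of those in the others, and the values up to 13 hold 24.9% and 21.5%.

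The partners of a pair showed little resemblance in peak value. The Spearman rho between the lower-coordinate and the upper-coordinate partner was 0.023 over the 1103 close pairs and 0.057 over the 1209 pairs farther apart, and for width it was -0.054 and 0.065. These are correlations across pairs of 1 list that share the libraries, and they are weak. The values of the partners differed by 2.31 ± 0.17 on average in close pairs and by 2.26 ± 0.24 in the others (SD of 12 chromosome means). That difference of 0.049 ± 0.29 did not pass the exact sign-flip permutation test (adjusted p = 0.723, 95% interval -0.14 to 0.23). Partners had equal peak values in 18.7% of the close pairs and 16.1% of the others, and values at least 4 apart in 27.2% and 24.6%. Both partners were at 18 in 69 close pairs (6.26%) and 85 of the others (7.03%), and 1 partner alone was at 18 in 34.3% and 35.5%. Where the peak values of the partners differed, the wider partner had the higher one in 768 of 897 close pairs (85.6%) and in 867 of 1014 of the others (85.5%).

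**Figure D5:**
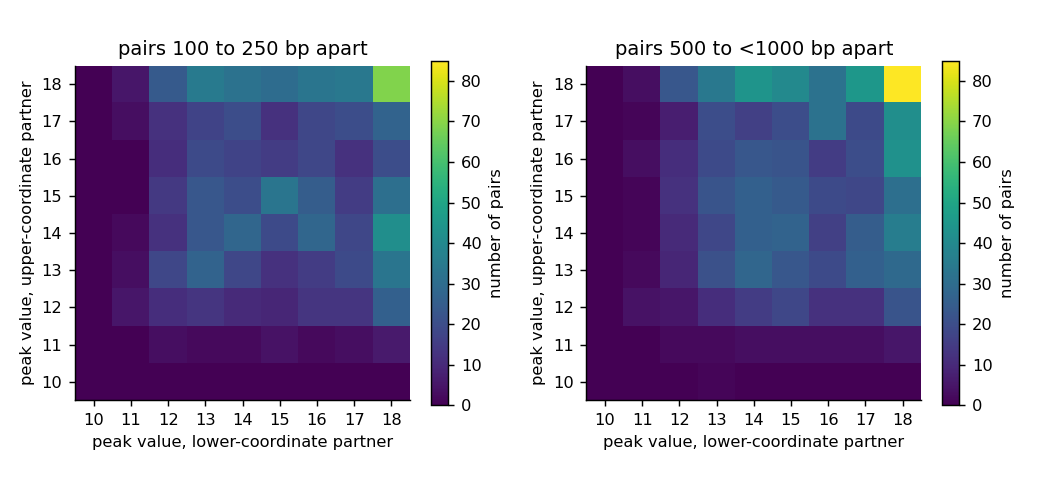
Number of pairs (colour) by the peak value of the lower-coordinate partner (x axis) and of the upper-coordinate partner (y axis), for pairs 100 to 250 bp apart (left) and pairs 500 to under 1000 bp apart (right). The cell with 18 in both partners is the fullest in either set, with 69 and 85 pairs, and the other pairs spread widely over the grid.

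The share of peaks facing the gap was not found to differ between the sets. Over both partners, 51.8% ± 3.67 of the peak positions lay on the gap side of the midpoint of their region in close pairs and 51.3% ± 2.82 in pairs farther apart (SD, n = 12 chromosomes), with a difference of 0.45 percentage points ± 4.23 (exact sign-flip permutation test, adjusted p = 0.723, 95% interval -2.24 to 3.01). Taken alone, 27.7% of lower-coordinate partners and 75.5% of upper-coordinate partners had their peak on the gap side in close pairs, and 27.5% and 76.2% in the others. Peak positions in both sets lay mostly at the lower-coordinate side of a region, so the partners were averaged with equal weight. The upper-coordinate partner was the wider one in 52.4% of the close pairs and 48.4% of the others.

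Close pairs lay on every chromosome. Chromosome 1 had 159, chromosome 3 had 152 and chromosome 2 had 128, while chromosome 12 had 47 and chromosome 10 had 55. Per 1000 open regions there were 36.6 ± 4.31 close pairs and 40.8 ± 4.65 pairs farther apart (SD, n = 12 chromosomes). Chromosomes 7, 3 and 11 had the most close pairs per 1000 regions, with 42.7, 41.4 and 41.2, and chromosomes 12 and 4 the fewest, with 28.4 and 29.7. Chromosome 3 alone had more close pairs than pairs farther apart, 152 against 122. The outer 25% at each end of the chromosomes, with the last region as the end, held 57.9% of the close pairs, 55.7% of the others and 57.1% of all regions. The median close pair lay in a 1 Mb bin with 99 open regions and the median pair farther apart in one with 95, which was also the median over all regions.

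The close pair with the largest summed width on each chromosome summed to between 1143 and 1987 bp over the 12 chromosomes, and in 4 of these 12 both partners were at 18. The widest lay on chromosome 6, where a region of 257 bp from 16009504 to 16009760 was followed after 165 bp by one of 1730 bp from 16009926 to 16011655, both at 18. On chromosome 2, regions of 530 and 1281 bp from 35090555 to 35091084 and from 35091227 to 35092507, 142 bp apart, were both at 18. On chromosome 1, regions of 1175 and 607 bp from 30256137 to 30257311 and from 30257526 to 30258132, 214 bp apart, were at 18 as well. So were regions of 471 and 847 bp on chromosome 9, from 17571421 to 17571891 and from 17572013 to 17572859, 121 bp apart. The most uneven of the 12 was on chromosome 11, where a region of 1655 bp at 18, from 825579 to 827233, stood 170 bp from one of 72 bp at 12, from 827404 to 827475. The lower-coordinate partner was the wider one in 6 of the 12.

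In 11 close pairs the partners' peak values differed by 7, the most that was found. The lower-coordinate partner was the higher one in 6 of the 11. Peak values in close pairs ran from 11 to 18, so each of these joins an 18 to an 11, and the 5 with the largest difference in width are given here. On chromosome 3 a region of 883 bp at 18, from 14525499 to 14526381, lay 132 bp from one of 72 bp at 11, from 14526514 to 14526585. On chromosome 1 a region of 82 bp at 11, from 7701350 to 7701431, lay 248 bp from one of 660 bp at 18, from 7701680 to 7702339. The remaining pairs, on chromosomes 10, 9 and 3, joined regions of 636, 434 and 420 bp at 18 to regions of 72, 93 and 99 bp at 11. A difference of 7 was also found in the pairs farther apart. There, 5 pairs had 18 in the lower-coordinate and 11 in the upper-coordinate partner, and 3 pairs had the reverse.

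Among the 69 close pairs with both partners at 18, the 5 with the smallest summed width summed to between 159 and 454 bp. The median summed width over all close pairs was 438 bp. The pair with the smallest summed width among these lay on chromosome 12, with 82 bp from 13405200 to 13405281 and 77 bp from 13405528 to 13405604, 246 bp apart. The next, on chromosome 4, had regions of nearly equal width, 121 bp from 13605590 to 13605710 and 122 bp from 13605840 to 13605961, 129 bp apart, and both had their peak position at base 1. One more, on chromosome 12, had 154 bp from 13374775 to 13374928 and 249 bp from 13375063 to 13375311, 134 bp apart. The other two were on chromosome 3, with 224 and 151 bp, and on chromosome 8, with 275 and 179 bp.

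The most isolated close pairs lay 67946 to 82618 bp from any other open region. The nearest region to a close pair was at a median distance of 3566 bp, against 4148 bp for the pairs farther apart, where the rule itself sets the minimum at 1000 bp for both. The most isolated pair, on chromosome 7, had 73 bp at 13 from 10374169 to 10374241 and 792 bp at 18 from 10374491 to 10375282, 249 bp apart, with no other region within 82618 bp. The pair on chromosome 9 from 799353 to 799499 and from 799642 to 799713, of 147 and 72 bp at 15 and 14, had none within 78174 bp. The other three, on chromosomes 4, 11 and 9, stood 71262, 69848 and 67946 bp from the nearest region.

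Which genes, promoters or sequences lie at these pairs was not analysed here, since none of the sources at hand names the genome build of the coordinates. Positions count from 1, as in the deposited list.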

How the data were processed

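ATAC-seq libraries were aligned with Bowtie2 2.2.3, per the submitters' processing notes. Not given in the sources used here are the genome build, the region caller, the read filters and how libraries were combined. The authors deposited 1 list of open regions with a start, an end and the attributes max (peak value) and maxpos (peak position), used as deposited. It has 0 columns of per-library values, so the planned comparison of treatments was not made. Regions on chromosomes 1 to 12 were sorted, and neighbours with a gap under 1000 bp were joined into runs. Computations used Python 3.11.15 with pandas 2.3.3 and NumPy 2.4.6, and figures Matplotlib 3.10.9.

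Differences per chromosome were tested with exact two-sided sign-flip permutation tests over 12 chromosomes, whose smallest possible p is 0.000488, with Benjamini-Hochberg adjustment over 4 results and a threshold of 0.05. The pair search and the test at matched width were tested on simulated data. The simulation drew the widths of both sets alike, so it did not try the matching on sets that differ in width. Pairs were named by rule: the largest summed width on each chromosome, and 5 pairs each for the largest difference in peak value, the greatest isolation, and the smallest summed width with both partners at 18. The members and tests were chosen with earlier results of these data known. The alternatives were another run distance, other gap ranges, merging, finer width matching and leaving out each chromosome. Others dropped pairs with a region of the smallest width, or kept only regions with peak values of at least 15 before runs were joined.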

Additional observations from a re-analysis of the deposited data

Results flagged for a closer look

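Outside chromosomes 1 to 12, the sequence named ChrM held 6 pairs 100 to 250 bp apart by the same rule, among 73 regions and 7 runs of exactly 2. It stood out because the comparisons above do not use that sequence. Of the 12 regions in these pairs, 7 had a peak value of 18, and their median width was 152.5 bp. ChrC held 3 such pairs, in which 5 regions had a peak value of 18 and the median width was 84.5 bp. The mean peak value was 16.92 in the pairs on ChrM and 17.17 in those on ChrC, so high values were not particular to ChrM. ChrSy and ChrUn held 0 such pairs.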

How the results depend on the processing

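The lower mean peak value of close pairs, -0.217, kept its direction in all 18 alternatives and passed the test in 16. It did not pass against gaps of 300 to under 500 bp (-0.114) or with peak values of at least 15 (-0.0567), a filter on the tested value itself; the cause was not tested. Leaving out each chromosome gave -0.239 to -0.173. The 3 results that did not pass (0.0396 at matched width, 0.0493 for the partners' difference, 0.454 percentage points for peaks facing the gap) passed in 0 of 55 alternatives. They changed sign as follows, the cause again not tested: matched width with runs joined under 2000 bp (-0.0256); the partners' difference with gaps of 120 to 200 bp (-0.0246) and peak values of at least 15 (-0.127); peaks facing the gap with gaps of 120 to 200 bp (-0.674), after merging regions under 100 bp apart (-0.283) and without chromosome 12 (-0.0371, in a range up to 1.34). Without a change of sign or call, the partners' difference was 0.213 against gaps of 300 to under 500 bp, and peaks facing the gap came to 1.93 percentage points with runs joined under 2000 bp. The number of pairs, 1103, was 602 with gaps of 120 to 200 bp, a range that selects fewer pairs by construction. It was 562 with peak values of at least 15. That filter removed regions before runs were joined, so some of its pairs are not among the 1103. The median width was 203.5 bp without pairs that hold a region of the smallest width and 281 bp with peak values of at least 15. The median gap stayed between 151 and 161 bp. No paired analysis was possible because the list carries no values per library. Depth per library is unknown.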
